A study of Mus musculus with 2 samples.

Results

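The 84 genes described here carry the symbols of the nuclear-encoded subunits of oxidative phosphorylation (OXPHOS). They were chosen by symbol alone (Ndufa, Ndufb, Ndufc, Ndufs, Ndufv, Sdha to Sdhd, Uqcr, Cox4 to Cox8 and Atp5) from the 15169 genes listed in both libraries, leaving out Ndufaf symbols, Ndufa4l2, Cox6a2 and symbols ending in -ps. By respiratory complex, 36 belonged to complex I, 4 to complex II, 8 to complex III, 15 to complex IV and 17 to complex V, which makes 80 subunits. The other 4, Sdhaf1 to Sdhaf4, are assembly factors of complex II that the symbols let in, and they are given apart. Ndufa4, once assigned to complex I, was counted with complex IV.

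Complexes I to IV pass electrons from NADH and succinate to oxygen and, except for complex II, pump protons across the inner mitochondrial membrane, and complex V uses the returning protons to make ATP. Complexes I, III, IV and V are built from nuclear-encoded and mitochondrially encoded subunits, whereas complex II is wholly nuclear-encoded. Photoreceptors and retinal neurons are known for a high demand for ATP from this pathway, and immune cells for shifting between it and glycolysis.

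The cells came from the retina of B6 mice. Glaucoma had been induced with microbeads, which block the outflow of the eye and raise its pressure. Cells were sorted by flow cytometry for CD45, the surface protein of blood-derived and resident immune cells. Both groups had glaucoma, and they differed in the treatment, PBS or the protein Igfbpl1. Each group was 1 library pooled from 10 mice aged 8 to 10 months, made with a 10x 3' kit; the labels give no sex. With 1 library per group no difference was tested, and every comparison is of these libraries and not of the treatments.

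UMIs, the molecular tags by which transcripts were counted, came to 3795008 from 1055 cells with PBS and to 9463631 from 3330 cells with Igfbpl1, and the libraries had 0 cell barcodes in common. Cells were placed in classes by the share of each class's marker genes detected. Microglia-gated cells were 791 in the PBS library, with a median of 3534 UMIs, and 1646 in the Igfbpl1 library, with a median of 2086.5. T, B and bipolar neuron classes also had 20 or more cells in both libraries. Of PBS microglia-gated cells 195 had UMIs of Xist and none of 4 Y-linked genes, and 374 the reverse. With Igfbpl1 these were 592 and 432 cells. Ptprc, which encodes CD45, had UMIs in 77.4% and 70.4% of microglia-gated cells, in 0 of the 33 rod-gated and 0 of the 23 bipolar-gated PBS cells, and in 5 of the 99 bipolar-gated Igfbpl1 cells. The retinal neuron classes in this CD45 sort were thus largely without transcripts of the sorted antigen. Of the Muller glia or astrocyte-gated Igfbpl1 cells 2 of 34 had Ptprc, and none of that class's markers was among its top 10 genes by fold, which Clu and Trpm3 led. Border macrophage-gated cells had 3 of their own and 3 of other classes' markers there. Immune classes other than microglia-gated cells had Ptprc UMIs in 55.4% to 87.6% of cells.

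The UMIs of a class were added up over its cells, and levels are given as CPM, the count scaled to a class total of 1000000, or as a percentage of it. Intervals are exact 95% intervals and cover counting error only. Genes counted as measured with a mean of at least 50 CPM and at least 20 UMIs, and were called higher or lower past 1.5-fold after adding 10 CPM to each side.

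In microglia-gated cells the 80 subunits together were 1.14% of all UMIs in the PBS library and 1.40% in the Igfbpl1 library, a ratio of 1.23 (interval 1.21 to 1.24). Most subunits shared in the difference by a small amount: of 71 measured, 57 were above the PBS level and 14 below it, with a median log2 ratio of 0.24, against -0.12 over all 3335 genes measured. Past 1.5-fold, 5 of the 71 (7.04%) were higher, beside 3.84% of all genes measured, and 0 were lower, beside 5.31%. The count of higher members went down to 1 with 50 CPM added and to 2 with a stricter marker gate, and up to 10 with ratios centred on the median gene. The share of all genes past 1.5-fold at these settings was not counted, so these counts have no share beside them. Cells thinned to 1000 UMIs each had a median of 1.1% of UMIs from the subunits in the PBS library and 1.3% in the Igfbpl1 library, and the middle 50% of cells, from 0.8% to 1.4% and from 1% to 1.7%, overlapped widely.

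The 5 members past 1.5-fold came from complexes III, IV and V. Cox5a, a small matrix-side subunit of cytochrome c oxidase, stood at 107 CPM with PBS and 174 CPM with Igfbpl1, a ratio of 1.62 (1.41 to 1.85). Cox8a, a small membrane subunit of the same enzyme, stood at 563.7 and 871 CPM (1.55, 1.46 to 1.64). Atp5e, the epsilon subunit in the central stalk of ATP synthase, stood at 410 and 634 CPM (1.55, 1.45 to 1.66). Uqcrh, the hinge protein that helps cytochrome c dock on complex III, stood at 299 and 460 CPM (1.54, 1.42 to 1.67). Atp5g2, a gene for the proton-carrying c ring of ATP synthase, stood at 365 and 553 CPM (1.52, 1.41 to 1.63). Of the 60-base words in the last 300 bases of the Atp5g2 transcript 98.3% also occur in the transcripts Gm10175 and Gm10231, so its count could be split among these genes and is uncertain. Just under the threshold on the scale with 10 CPM added were Uqcr10 of complex III (log2 ratio 0.55) and Ndufv3 of complex I (0.54), against 0.59 for Atp5g2.

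Promoter sequence of 4 of these members, and of Sdha with the lowest ratio of all members, is shown because the same short motifs recur in many promoters of the group. Each is 120 bases, 5' to 3' on the gene's strand, from RefSeq on GRCm38.p6. Capitals mark matches to CCGGAAG (the core bound by ETS family factors) or the NRF1 motif (GCGCA, any base, GCGC) on either strand:
Cox8a, chr19:7217567-7217686, minus strand: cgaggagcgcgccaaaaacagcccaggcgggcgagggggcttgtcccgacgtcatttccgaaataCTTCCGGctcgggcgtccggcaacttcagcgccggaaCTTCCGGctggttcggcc
Atp5e, chr2:174464141-174464260, minus strand: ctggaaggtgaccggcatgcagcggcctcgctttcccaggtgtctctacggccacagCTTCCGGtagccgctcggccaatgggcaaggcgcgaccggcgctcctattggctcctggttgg
Uqcrh, chr4:116075021-116075140, minus strand: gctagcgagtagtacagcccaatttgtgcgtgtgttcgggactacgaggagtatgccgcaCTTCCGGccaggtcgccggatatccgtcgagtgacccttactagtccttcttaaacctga
Cox5a, chr9:57521112-57521231, plus strand: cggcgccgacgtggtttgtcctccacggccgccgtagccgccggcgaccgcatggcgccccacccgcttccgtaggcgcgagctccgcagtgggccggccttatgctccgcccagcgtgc
Sdha, chr13:74350231-74350350, minus strand: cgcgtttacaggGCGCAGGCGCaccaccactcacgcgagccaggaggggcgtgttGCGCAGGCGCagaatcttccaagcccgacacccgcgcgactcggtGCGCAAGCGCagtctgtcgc

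Cox8a held 2 matches to the ETS core, Atp5e and Uqcrh 1 each, and Sdha 3 matches to the NRF1 form, while neither motif occurs in the 300-base window of Cox5a. A promoter of 300 bases, 250 before to 50 after the start, was found for 71 of the 84 genes. CCGGAAG occurred in 19 of the 71 (26.8%), against 8.86% of 32851 mouse promoters of the same length. The NRF1 motif occurred in 18 (25.4%) against 4.60%, its form with T as the open base in 5 (7.04%) against 0.971%, and AAGATGGCG, the YY1 motif, in 6 (8.45%) against 1.40%. The SP1 motif GGGCGG, in 45.1% against 35.7%, and the CCAAT box, in 42.3% against 37.4%, stood closer to the share of all promoters. The TATA box TATAAA was in 9.86% against 13.6%. Both strands were searched. The form with T is part of the wider NRF1 count, and matches to different motifs may overlap. A match says only that these letters are present.

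By complex, the microglia-gated libraries differed unevenly. Complex III summed to 1165 CPM with PBS and 1564 CPM with Igfbpl1, a ratio of 1.34 (1.29 to 1.40). Complex IV was at 3099 and 3951 CPM (1.28, 1.24 to 1.31), complex V at 3331 and 4218 CPM (1.27, 1.24 to 1.30) and complex I at 3543 and 4013 CPM (1.13, 1.11 to 1.16). Complex II went the other way, at 248 and 214 CPM (0.862, 0.780 to 0.952). The medians over measured members were 0.34 on the log2 scale for complex III (8 measured), 0.27 for complex IV (12), 0.28 for complex V (17) and 0.16 for complex I (32), and the 2 measured members of complex II lay at -0.48 and 0.06. The 4 Sdhaf assembly factors were under the minimum level and summed to 93.8 and 91.0 CPM.

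**Figure D1:**
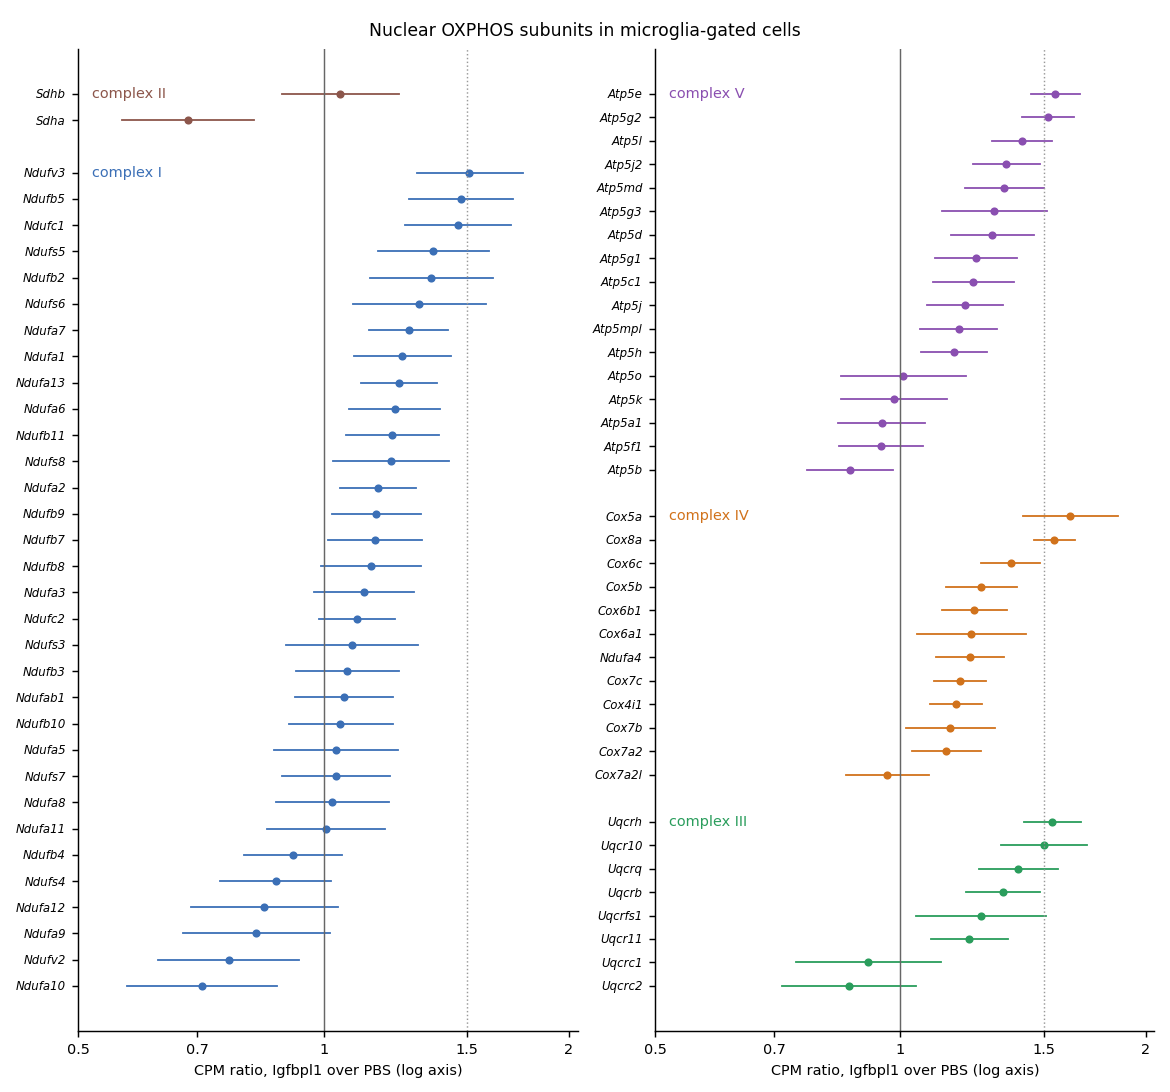
Ratio of CPM, Igfbpl1 over PBS, of the 71 measured subunits in microglia-gated cells (horizontal log axis), grouped by complex and ordered within it. Points are ratios, lines exact 95% counting intervals, the solid line marks equality and the dotted line 1.5-fold. Cox5a has the highest ratio, 1.62, and Sdha the lowest, 0.682.

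Within complex I no member passed 1.5-fold. The 2 members with most UMIs were Ndufa13, at 185 CPM with PBS and 229 CPM with Igfbpl1 (1.24, 1.11 to 1.38), and Ndufa2, at 192 and 224 CPM (1.17, 1.05 to 1.30). Both are supernumerary subunits, which surround the catalytic core. Ndufv3, an accessory subunit of the NADH-binding module, had the highest ratio on the same scale, at 89.0 and 134 CPM (1.51, 1.30 to 1.76). Ndufa10, an accessory subunit on the membrane arm, had the lowest, at 62.3 and 44.1 CPM (0.709, 0.573 to 0.876). Ndufv2, which carries an iron-sulphur cluster of the same NADH-binding module, was also on the low side, at 67.8 and 51.8 CPM (0.764, 0.626 to 0.933). The 7 core subunits, those that carry the flavin, the clusters or the quinone site, summed to 419 and 428 CPM, a ratio of 1.02, and the 29 supernumerary ones to 3124 and 3585 CPM, a ratio of 1.15.

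Complex II, succinate dehydrogenase, works in the citric acid cycle as well as in the chain. Sdha, its flavoprotein and the subunit that oxidises succinate, stood at 82.5 CPM with PBS and 56.2 CPM with Igfbpl1 (0.682, 0.566 to 0.820), the lowest ratio of all members, yet short of 1.5-fold with 10 CPM added. Sdhb, the iron-sulphur subunit, stood at 85.2 and 89.3 CPM (1.05, 0.889 to 1.24). The membrane anchors Sdhc, at 30.8 and 25.9 CPM, and Sdhd, at 49.6 and 42.4 CPM, were under the minimum level. The 16 listed citric acid cycle genes summed to 761 and 638 CPM, a ratio of 0.839 (0.792 to 0.888), with 0 of 6 measured past 1.5-fold and Suclg2 and Mdh2, the genes with most UMIs, at 96.2 and 84.8 CPM and at 84.2 and 80.9 CPM.

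In complex III the 2 large core proteins lay below the PBS level and the other subunits above it. Uqcrh and Uqcrb, a subunit near the quinone pocket, had the most UMIs. Uqcrb stood at 191 CPM with PBS and 256 CPM with Igfbpl1 (1.34, 1.20 to 1.48), but 38.2% of its 3' words also occur in other genes and its count is uncertain. Uqcrc1 and Uqcrc2, the core proteins related to processing peptidases, stood at 58.9 and 53.8 CPM (0.913, 0.744 to 1.12) and at 70.2 and 60.7 CPM (0.865, 0.715 to 1.05). Among cells with Y-linked genes alone their ratios were 1.08 (0.766 to 1.53) and 1.12 (0.823 to 1.51), and with Xist alone 0.705 and 0.842. The other 6 subunits together were at 1036 and 1449 CPM, a ratio of 1.40, and each was above the PBS level.

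In complex IV, 11 of 12 measured members were above the PBS level. Cox7c, one of the 2 with most UMIs beside Cox8a, stood at 401 CPM with PBS and 474 CPM with Igfbpl1 (1.18, 1.10 to 1.27), but 99.2% of its 3' words also occur in other genes and its count is uncertain. Cox7a2l, which helps to join complexes III and IV into supercomplexes, had the lowest ratio of the measured members, at 171 and 165 CPM (0.963, 0.856 to 1.08). The isoforms Cox4i2, Cox6b2 and Cox7a1, which other tissues use, had 0 and 5, 12 and 19, and 3 and 3 UMIs in microglia-gated cells.

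Complex V members with most UMIs were Atp5e and Atp5g2. The paralogs of Atp5g2 encode the same mature c subunit. Atp5g1 stood at 160 CPM with PBS and 198 CPM with Igfbpl1 (1.24, 1.10 to 1.39), with 16.6% of its 3' words shared with other genes, and Atp5g3 at 96.2 and 125 CPM (1.30, 1.12 to 1.51). All 3 were thus above the PBS level. Atp5b, the catalytic beta subunit of the F1 head, had the lowest ratio of the complex, at 171 and 148 CPM (0.866, 0.768 to 0.978), and Atp5a1, its alpha partner, stood at 157 and 149 CPM (0.948, 0.838 to 1.07).

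The subunits were also split by protein length, a split chosen after the values were seen. The 11 subunits of over 300 residues, counted on the precursor, summed to 854 CPM with PBS and 799 CPM with Igfbpl1, a ratio of 0.935, and 1 of the 8 measured, Ndufv3, was above the PBS level. The 21 subunits of 100 residues or fewer summed to 4499 and 5988 CPM, a ratio of 1.33, and 19 of the 20 measured were above it. Of the 43 measured subunits of intermediate length, 37 were above it and 6 below, so that long subunits made up 7 of the 14 members below the PBS level. Short genes as a whole differed in the same direction: the Spearman correlation of the log2 ratio with genomic span was -0.39 across 3323 genes measured and -0.36 across the 71 members, which share the same libraries. Among genes in quartile 1 by span, the shortest, the median log2 ratio was 0.27 for 53 members and 0.09 for 778 other genes. Past 1.5-fold, 5 of these members (9.43%) and 79 of the others (10.2%) were higher, so the members' share was no larger than that of other short genes. In T-gated and B-gated cells the long subunits were at 1.04 and 0.976 and the short ones at 1.73 and 1.42. In bipolar-gated cells they were at 1.05 and 1.28, with the complex III core proteins at 1.98. Among microglia-gated cells with Y-linked genes alone, Ndufa9 was at 1.15 (0.813 to 1.62). There Uqcrc1 and Uqcrc2 were at 1.08 (0.766 to 1.53) and 1.12 (0.823 to 1.51), above the PBS level like Ndufv3. With Xist alone Ndufa9, Uqcrc1 and Uqcrc2 were at 0.705, 0.705 and 0.842. Atp5a1, Atp5b, Ndufa10 and Sdha were below the PBS level in both sets of cells. The part of gene length in the members' difference was not tested.

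**Figure D2:**
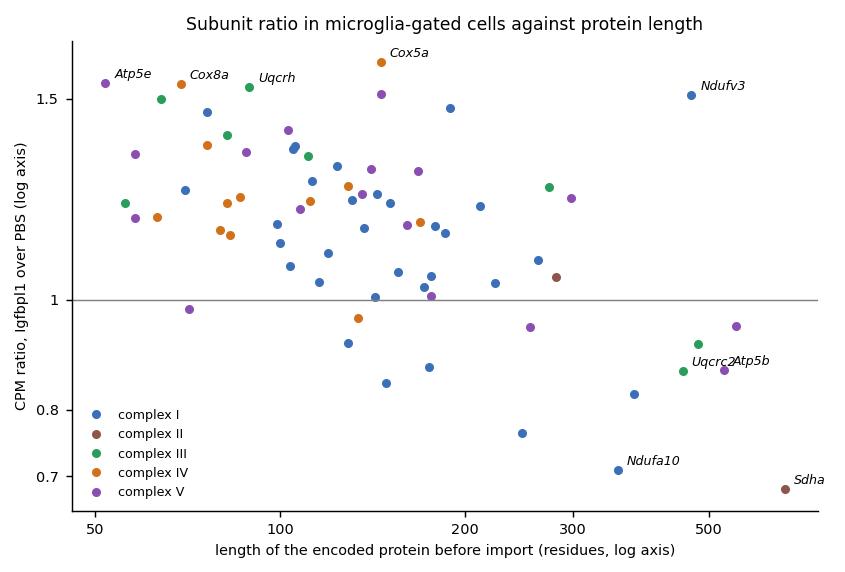
Ratio of CPM, Igfbpl1 over PBS, in microglia-gated cells (vertical log axis) against the length of the encoded precursor protein in residues (horizontal log axis), 1 point per measured subunit, coloured by complex. Of the 8 subunits over 300 residues only Ndufv3 lies above 1, and of the 20 with 100 residues or fewer 19 do.

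Other genes of the pathway were given by lists. The 13 mitochondrially encoded subunits were 1.25% of UMIs in the PBS library and 1.49% in the Igfbpl1 library (1.19, 1.17 to 1.20), with 9 of 12 measured above the PBS level and 0 past 1.5-fold in either direction. Among them mt-Co1, a catalytic subunit of complex IV, stood at 2314 and 3183 CPM, and mt-Atp6, a subunit of the proton channel of complex V, at 2344 and 2662 CPM. Assembly factors of the complexes summed to 1319 and 1215 CPM (0.921, 0.883 to 0.961). Of 6 measured, 1 was lower, Cox16, an assembly factor of complex IV, at 168 and 106 CPM (0.631, 0.553 to 0.720). Electron carriers and partners were at 2083 and 2267 CPM (1.09, 1.05 to 1.12), with 0 of 11 called, and those with most UMIs were Chchd2, at 411 and 498 CPM, and Atpif1, the inhibitor of ATP synthase, at 277 and 350 CPM. Glycolysis genes summed to 1308 and 1301 CPM (0.994, 0.954 to 1.04), with 0 of 9 called and Aldoa and Gapdh at 191 and 201 CPM and at 239 and 182 CPM. Cytosolic ribosomal proteins, at 11% and 13.4% of UMIs (1.22, 1.21 to 1.22), and heat shock genes (1.75, 1.73 to 1.77, with 10 of 12 higher) were also above the PBS level, and their part in the subunits' difference was not tested. Among thinned cells the subunits' share had a Spearman correlation of 0.49 and 0.54 with the ribosomal share and of 0.007 and -0.14 with the heat shock share (791 PBS and 1646 Igfbpl1 cells, all of the same 2 libraries).

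The summed ratio in microglia-gated cells stood at 1.25 (1.22 to 1.29) among the cells with Xist alone and at 1.19 (1.16 to 1.22) among those with Y-linked genes alone. Among the former 10 of 71 measured members were higher, beside 9.38% of all genes measured, and 2 were lower, beside 18.8%. Among the latter 1 of 71 was higher, beside 2.91%, and 0 were lower, beside 3.09%.

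The subunits' ratios were above 1 in the 3 other classes that both libraries hold. T-gated cells had 1.67% of UMIs from the 80 subunits in the PBS library (31 cells) and 2.58% in the Igfbpl1 library (278 cells), a ratio of 1.54 (1.47 to 1.62). B-gated cells were at 1.56% (78 cells) and 2.10% (55 cells), a ratio of 1.35 (1.28 to 1.42). Bipolar-gated cells were at 3.59% (23 cells) and 4.35% (99 cells), a ratio of 1.21 (1.16 to 1.26), which became 1.07 among cells of 2000 UMIs or more. Median UMIs per cell went from 3710 to 2245 in T-gated, 2237.5 to 1526 in B-gated and 3889 to 1791 in bipolar-gated cells. Spearman correlations of the share with UMIs per cell were -0.20 and 0.09, -0.31 and 0.46, and -0.23 and -0.46 in that order. The part of depth in these ratios was not tested. In T-gated cells 38 of 72 measured members were higher, beside 25.6% of all genes measured, and 3 were lower, beside 15%. In B-gated cells 27 of 70 were higher, beside 13.8%, and 4 lower, beside 25.2%. In bipolar-gated cells 14 of 74 were higher, beside 14%, a share near that of all genes, and 0 were lower, beside 11.5%. The T-gated cells with Xist alone and with Y-linked genes alone numbered 3 and 15 with PBS and 187 and 8 with Igfbpl1, and the B-gated ones 10 and 39 with PBS and 14 and 9 with Igfbpl1. These are under 20 cells in at least 1 library, so no ratio within them was taken, and the part of this makeup in the T-gated and B-gated ratios was not tested.

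The mitochondrially encoded subunits went the other way in these classes. They stood at 2.78% of UMIs in PBS T-gated cells and 1.92% in Igfbpl1 ones (0.690, 0.664 to 0.717), at 3.05% and 2.16% in B-gated cells (0.708, 0.676 to 0.741), and at 5.67% and 4.998% in bipolar-gated cells (0.881, 0.853 to 0.911). In T-gated and B-gated cells all 12 measured mitochondrially encoded genes were below the PBS level. The ribosomal proteins were at 0.741 (0.734 to 0.749) of the PBS level in T-gated, 0.988 in B-gated and 1.20 in bipolar-gated cells, and their part in the class totals was not tested. With ribosomal, mitochondrial and heat shock genes taken out of the total, the subunits' ratio in T-gated cells was 1.28.

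**Figure D3:**
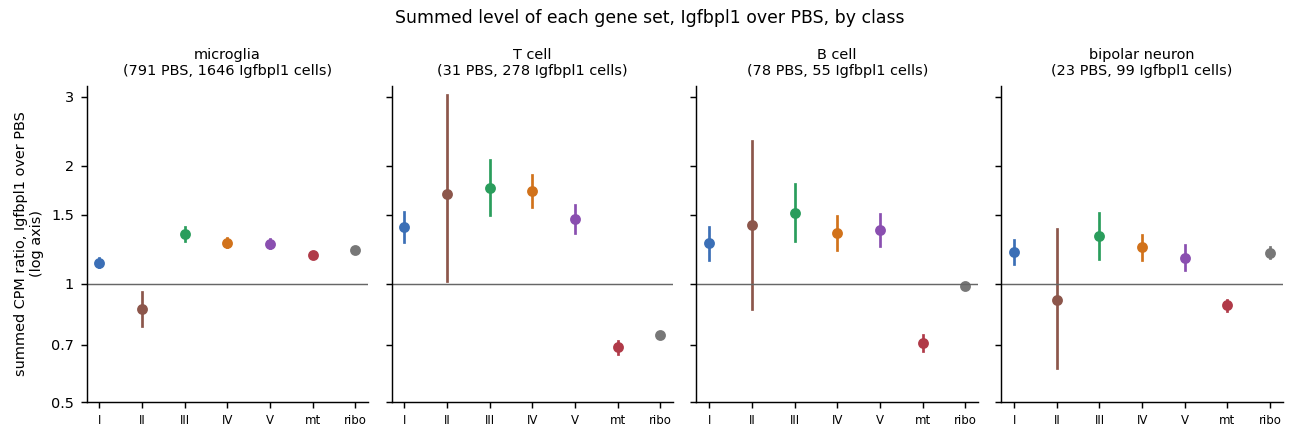
Summed CPM ratio, Igfbpl1 over PBS (vertical log axis), for complexes I to V, the mitochondrially encoded subunits (mt) and the cytosolic ribosomal proteins (ribo) in the 4 classes with 20 or more cells in both libraries. Points are ratios and lines exact 95% counting intervals. The mitochondrially encoded point lies above 1 in microglia-gated cells, at 1.19, and below 1 in the other classes, at 0.690, 0.708 and 0.881.

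In T-gated cells complexes III and IV were at 1.76 (1.502 to 2.07) and 1.72 (1.57 to 1.89), beside 1.40 (1.28 to 1.53) for complex I and 1.46 (1.35 to 1.59) for complex V. Complex II was at 144 and 244 CPM there (1.69, 1.02 to 3.02), from 16 and 195 UMIs. Uqcr10, a small subunit of complex III, stood at 108 CPM with PBS and 469 CPM with Igfbpl1 (4.34, 2.46 to 8.48). Cox5b, a zinc-binding subunit of complex IV, stood at 171 and 515 CPM (3.01, 1.90 to 5.06). These PBS values rest on 12 and 19 UMIs. Lower in T-gated cells were Cox7a2l, at 396 and 201 CPM (0.508, 0.362 to 0.727), the core subunit Ndufs7, at 207 and 129 CPM (0.622, 0.393 to 1.03), and Uqcrc1, at 99.0 and 60.04 CPM (0.606, 0.311 to 1.29). Among measured members in B-gated cells Uqcrb had the largest ratio, at 93.8 and 281 CPM (2.99, 1.65 to 5.61). Its PBS value rests on 18 UMIs, and its count is uncertain because 38.2% of its 3' words also occur in other genes. The smallest ratio was that of Atp5b, at 255 and 112 CPM (0.440, 0.224 to 0.810).

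Across these 4 classes 38 of the 80 subunits had a ratio above 1 in every class, and 1, Atp5b, had a ratio below 1 in every class. Past 1.5-fold, 7 subunits were higher in 3 classes: Atp5e, Atp5g2, Atp5j2, Cox8a, Ndufc1, Ndufs8 and Uqcr10. Cox8a was at 1.55 in microglia-gated, 2.06 in T-gated, 1.82 in B-gated and 1.20 in bipolar-gated cells. Ndufc1, a membrane-arm subunit of complex I, was at 1.46, 2.07, 2.39 and 1.75 in the same order. No subunit was higher in all 4 classes, and 28 were higher in none. The 28 include members under the minimum level, such as Cox4i2, Cox6b2 and Cox7a1, which could not be called. The same counts across classes were not made over all genes, so no share stands beside them. All 4 comparisons draw on the same 2 libraries.

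Microglia-gated cells had the lowest share in each library: all 14 comparisons of a class with microglia-gated cells gave a summed ratio above 1. In the PBS library the share of UMIs ran from 1.14% in microglia-gated through 1.36% in border macrophage-gated (21 cells), 1.56% in B-gated and 1.67% in T-gated cells to 3.59% in bipolar-gated and 4.11% in rod-gated cells. In the Igfbpl1 library it ran from 1.40% in microglia-gated through 2.10% in B-gated, 2.20% in Muller glia or astrocyte-gated (34 cells), 2.35% in dendritic (175 cells), 2.47% in monocyte (273 cells) and NK (178 cells), 2.57% in plasmacytoid dendritic (84 cells) and 2.58% in T-gated cells to 4.35% in bipolar and 4.57% in amacrine-gated cells (34 cells). In that order neighbours overlapped in their counting intervals except for microglia-gated and B-gated, dendritic and monocyte-gated, and T-gated and bipolar-gated cells. In the PBS library only B-gated and T-gated cells overlapped.

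**Figure D4:**
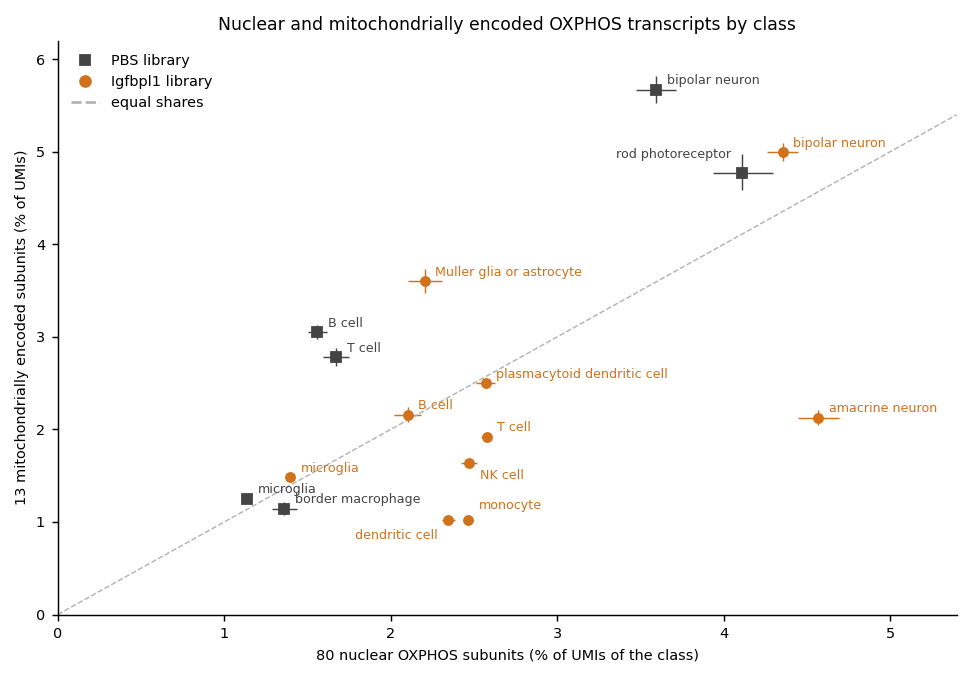
Percentage of a class's UMIs from the 80 nuclear-encoded subunits (horizontal axis) and from the 13 mitochondrially encoded subunits (vertical axis). Squares are PBS and circles Igfbpl1 classes with 20 or more cells, bars are exact 95% counting intervals and the dashed line marks equal shares. Monocyte-gated and dendritic-gated cells lie at 2.47% and 2.35% nuclear and 1.02% mitochondrially encoded, and amacrine-gated cells at 4.57% and 2.13%.

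The nuclear and the mitochondrially encoded subunits did not follow the same order. Relative to microglia-gated cells of the Igfbpl1 library, monocyte-gated cells were at 1.77 (1.74 to 1.79) for the nuclear subunits and 0.688 (0.674 to 0.701) for the mitochondrially encoded ones. Dendritic-gated cells were at 1.68 (1.65 to 1.71) and 0.684 (0.666 to 0.703). Amacrine-gated cells were at 3.27 (3.18 to 3.37) and 1.43 (1.38 to 1.49), whereas bipolar-gated cells of the same library were at 3.12 (3.05 to 3.19) and 3.37 (3.29 to 3.44). Muller-gated cells showed the reverse, with 1.58 (1.505 to 1.66) for the nuclear and 2.42 (2.33 to 2.52) for the mitochondrially encoded subunits. Ribosomal proteins were at 1.99 of the microglial level in both monocyte-gated and dendritic-gated cells and at 0.454 in amacrine-gated cells, so that classes with high nuclear OXPHOS shares stood on both sides of microglia-gated cells for ribosomal genes.

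Past 1.5-fold over microglia-gated cells of the PBS library, 69 of 74 measured members were higher in rod-gated cells, beside 35.4% of all genes measured, and 67 of 74 in bipolar-gated cells, beside 37.8%. The count was 30 of 71 in T-gated cells, beside 22.7%, 23 of 72 in B-gated cells, beside 25.1%, and 13 of 73 in border macrophage-gated cells, beside 17.4%, the last at the share of all genes. In the Igfbpl1 library it was 68 of 76 in bipolar (beside 41%), 68 of 74 in amacrine (46.8%), 53 of 71 in plasmacytoid dendritic (27.8%), 47 of 72 in NK (26.8%), 45 of 72 in T (27.1%), 43 of 70 in monocyte (21.2%), 38 of 71 in dendritic (22.6%), 30 of 68 in B (23.3%) and 44 of 74 in Muller-gated cells (37.4%). Few members were lower than in microglia-gated cells. In the PBS library there were 2 in border macrophage (beside 27.9% of all genes), 2 in T (41.3%), 3 in B (33.2%), 0 in rod (38.1%) and 0 in bipolar-gated cells (34.8%). In the Igfbpl1 library there were 1 in dendritic (39.8%), 2 in Muller (31.7%) and 0 in monocyte (40.4%), plasmacytoid dendritic (29.4%), T (32.7%), NK (32.4%), B (33.8%), bipolar (31.6%) and amacrine-gated cells (30.5%).

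**Figure D5:**
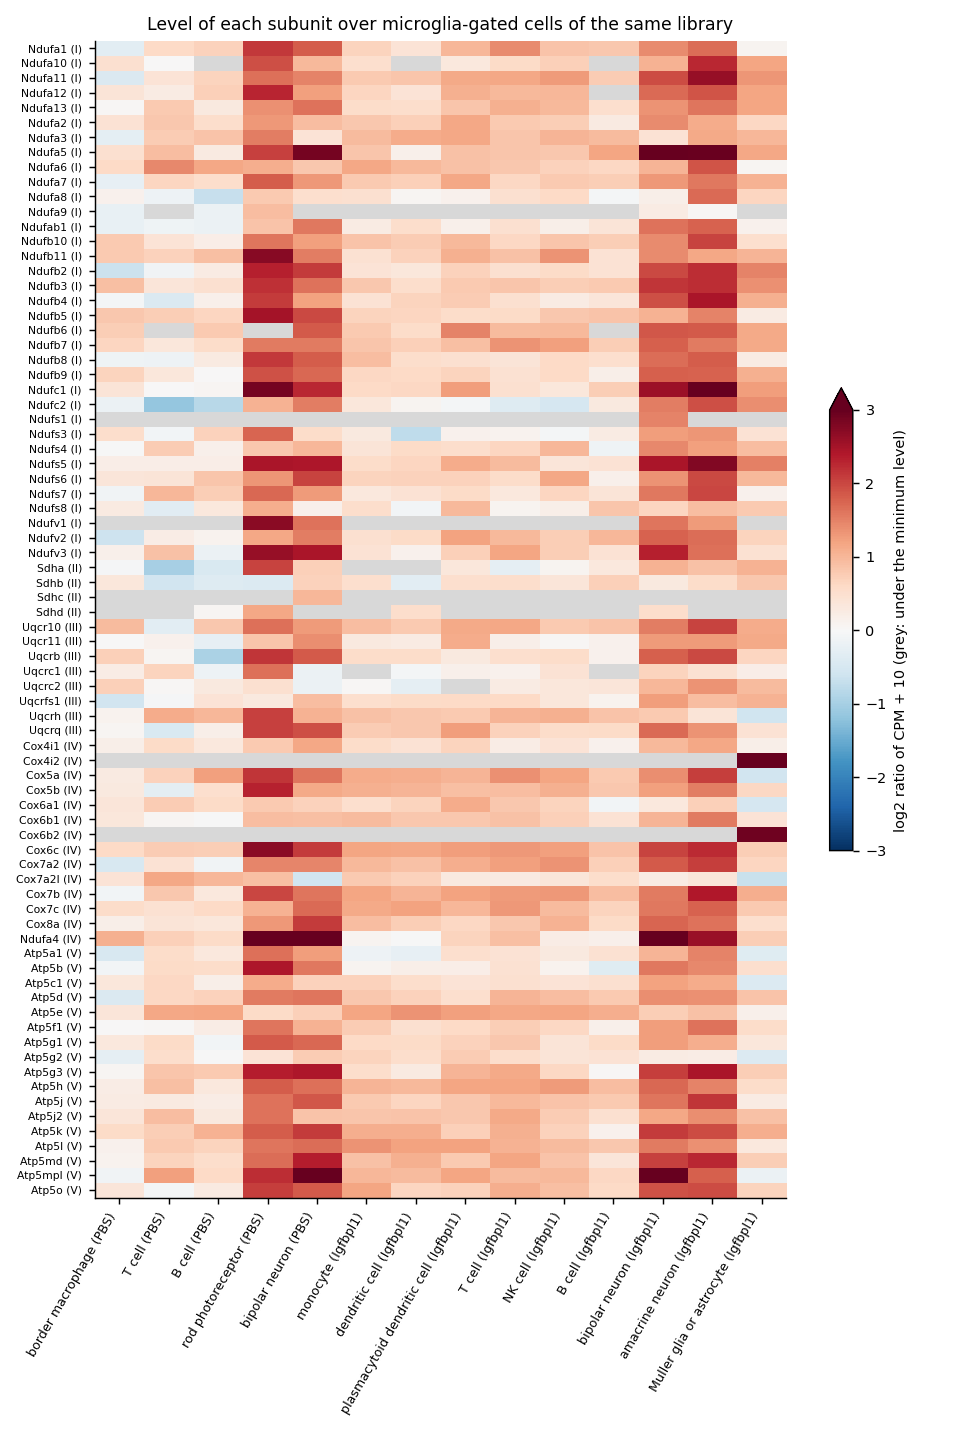
Log2 ratio of CPM, with 10 added, of the subunits shown (rows, with their complex) in each class over microglia-gated cells of the same library (columns), from blue (lower) to red (higher), with grey where the pair is under the minimum level. Ndufa4 reaches 15.3-fold in the rod column and 9.69-fold and 10.5-fold in the bipolar columns, and Cox4i2 and Cox6b2 are measured in the Muller column alone.

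In neurons the members did not differ by a common factor. Ndufa4, the subunit that joins complex IV late in its assembly, was at 233 CPM in PBS microglia-gated cells, 2255 CPM in bipolar-gated cells (9.69, 8.29 to 11.3) and 3563 CPM in rod-gated cells (15.3, 12.9 to 18.1). It had UMIs in 32 of 33 rod-gated and 22 of 23 bipolar-gated cells, against 402 of 791 microglia-gated cells, whose median depth of 3534 UMIs exceeded the 1217 of rod-gated cells. In the Igfbpl1 library it was at 283 CPM in microglia-gated, 2969 CPM in bipolar-gated (10.5, 9.49 to 11.6) and 1767 CPM in amacrine-gated cells (6.25, 5.36 to 7.25). Among immune classes of that library it was at 279 CPM in dendritic-gated, 301 CPM in monocyte-gated and 534 CPM in T-gated cells. Border macrophage-gated cells of the PBS library were at 502 CPM (2.16, 1.59 to 2.88 over microglia-gated cells).

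Atp5mpl, a small membrane subunit of ATP synthase, was at 183 CPM in PBS microglia-gated and 1551 CPM in bipolar-gated cells (8.47, 7.03 to 10.2), and at 216 and 2006 CPM in the Igfbpl1 library (9.30, 8.24 to 10.5). Ndufa5, an accessory subunit of the peripheral arm of complex I, was at 8.19 (6.07 to 10.9) and 8.84 (7.19 to 10.8) in bipolar-gated cells of the PBS and Igfbpl1 libraries and at 8.68 (6.71 to 11.1) in amacrine-gated cells. At the other end Atp5g2 was at 1.35 (0.859 to 2.02) in rod-gated, 1.19 (0.985 to 1.41) in Igfbpl1 bipolar-gated and 1.17 (0.921 to 1.48) in amacrine-gated cells. Sdhb was at 0.721 (0.148 to 2.13) in rod-gated cells, from 3 UMIs.

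Among immune classes some members stood apart from the rest. Cox6c, a small subunit of complex IV, was past 1.5-fold over microglia-gated cells in all 14 class comparisons and above the members' median in each. With Igfbpl1 it stood at 402 CPM in microglia-gated, 926 CPM in monocyte-gated (2.30, 2.13 to 2.49) and 1008 CPM in T-gated cells (2.51, 2.30 to 2.73). Of its 3' words 35.7% occur in other genes, so its level is uncertain. Atp5e was at 2.28 of the microglial level in monocyte-gated, 2.57 in dendritic-gated and 2.32 and 2.16 in PBS and Igfbpl1 B-gated cells. Atp5l, a membrane subunit of ATP synthase, stood at 400 CPM in Igfbpl1 microglia-gated and 1040 CPM in monocyte-gated cells (2.60, 2.41 to 2.81), and 68.5% of its 3' words occur elsewhere.

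Ndufc2, a membrane-arm subunit of complex I, had the smallest ratio among measured members in T-gated cells of both libraries. It stood at 194 CPM in PBS microglia-gated and 81.0 CPM in T-gated cells (0.417, 0.190 to 0.798), and at 213 and 160 CPM in the Igfbpl1 library (0.75, 0.618 to 0.905). NK-gated cells were at 148 CPM (0.696, 0.529 to 0.901) and PBS B-gated cells at 104 CPM (0.537, 0.326 to 0.838), while B-gated cells of the Igfbpl1 library were at 265 CPM (1.24, 0.849 to 1.76). Ndufs3, a core subunit of complex I, was lower in dendritic-gated cells, at 38.4 CPM against 72.3 CPM in microglia-gated cells (0.531, 0.331 to 0.812), though its 3' end shares 51.0% of its words with other genes. Sdha, Ndufa8 and Uqcrc1 lay above the members' median in only 2 of 12, 1 of 14 and 1 of 12 class comparisons in which they were measured.

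Complex II had a lower ratio to the microglial level than the other complexes in monocyte-gated, dendritic-gated and rod-gated cells and in T-gated cells of both libraries. It was also lowest in NK-gated, border macrophage-gated and amacrine-gated cells and in B-gated and bipolar-gated cells of both libraries, but not in Muller-gated cells. In T-gated cells of the PBS library it was at 0.580 (0.330 to 0.949), while complexes I, III, IV and V were at 1.37, 1.30, 1.46 and 1.70. That value rests on 16 UMIs, and in T-gated cells of the Igfbpl1 library complex II was at 1.14 (0.972 to 1.33) beside 1.69, 1.701, 1.973 and 1.964. In monocyte-gated cells it was at 1.19 (1.03 to 1.36) beside 1.59, 1.61, 1.91 and 1.89, and in dendritic-gated cells at 0.866 (0.704 to 1.06) beside 1.48, 1.57, 1.81 and 1.83. In rod-gated cells it reached 2.48 (1.66 to 3.57) beside 3.88, 3.46, 3.98 and 3.12.

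Of the tissue-restricted isoforms among the members, Cox4i2 marked 1 class. Cox4i2 is the alternative form of Cox4i1, the regulatory subunit of cytochrome c oxidase, and is known from lung and oxygen-sensing cells. It had 29 UMIs in 9 of the 10 Muller glia or astrocyte-gated PBS cells (629 CPM, 421 to 903) and 43 UMIs in 22 of the 34 Igfbpl1 cells (542 CPM, 392 to 730). In the same cells Cox4i1 was at 455 and 530 CPM, so that both isoforms stood at similar levels. In PBS microglia-gated cells Cox4i2 had 0 UMIs, which allows up to 1.03 CPM at 3 counts of the class total, and in Igfbpl1 microglia-gated cells 5 UMIs (1.23 CPM). In Igfbpl1 T-gated and monocyte-gated cells its 0 UMIs allow up to 3.75 and 2.61 CPM, again at 3 counts of the class total.

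The cells with Cox4i2 carried the Muller glial genes Rlbp1 and Glul, but the gate had used both as markers. Their presence thus follows in part from the choice of cells. In the Igfbpl1 library 20 of the 22 had UMIs of Rlbp1, a retinoid carrier of Muller glia, and 22 of 22 of Glul, glutamine synthetase. Of pericyte genes, in which Cox4i2 is also known, Rgs5 had UMIs in 0 of the 22 and 17 UMIs in 1 other cell of the class, Kcnj8 and Notch3 in 0 of the 34 cells of the class, and Pdgfrb in 2 of the 22. In the PBS library all 9 had Rlbp1 and Glul, and 2 had Pdgfrb. Rgs5, Kcnj8 and Notch3 are not among the genes listed for that library, so they could not be looked at there. Cox6b2, known from testis, was at 101 CPM (43.5 to 199) in 8 of the 34 Igfbpl1 cells and 65.0 CPM (13.4 to 190) in 3 of the 10 PBS cells of this class, against 4.69 and 4.11 CPM in microglia-gated cells. Cox7a1, the heart and muscle form, had at most 6 UMIs in any class. Cells of the class in the PBS library numbered under 20, so its values there stand as a description.

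Per cell, thinned to 1000 UMIs, the share of the subunits had medians of 1.6% and 2.4% in T-gated, 1.5% and 2% in B-gated and 3.8% and 4.6% in bipolar-gated cells of the PBS and Igfbpl1 libraries. Rod-gated cells had a median of 4.7% and amacrine-gated cells of 4.85%. From the 5th to the 95th percentile rod-gated cells ran from 1.9% to 6.4% and PBS microglia-gated cells from 0.4% to 2%, so these ranges met only at their ends. Unthinned medians were 4.76% in rod-gated and 1.10% in PBS microglia-gated cells.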

How the data were processed

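The authors deposited raw UMI counts, 1 table of genes by cells for each library. The submitters' processing notes name Cell Ranger 3.1 and mm10, and no source used here states the filter on cells. Counts were read with pandas 2.3.3, numpy 2.4.6 and scipy 1.17.1 under Python 3.11.15. A cell went to the class with the highest share of its markers detected, given at least 3 detected markers and a lead of 0.1. No doublets were removed. Scrublet in scanpy 1.11.5 called 6 of 1055 and 62 of 3330 cells, left out in an alternative. Classes needed 20 cells. Intervals are exact Poisson for CPM and conditional binomial for ratios. The calculation was checked on simulated counts. Gene positions and protein lengths come from GENCODE M21, and promoters from RefSeq on GRCm38.p6. Figures used matplotlib 3.10.9.

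Members, lists, markers and named genes were chosen with earlier results of these data known. Named were, per complex, the 2 members with most UMIs and those with the highest and lowest ratio in microglia-gated cells, those past 1.5-fold, the Atp5g paralogs, the restricted isoforms, and up to 3 members per direction in other classes with 50 UMIs or more, of which the text gives a part. Ndufs7, Ndufv2, Cox6c, Ndufa8, Cox4i1 and the members named across the 4 classes were chosen after their values were seen. The values of 1 member are not reported here.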

Additional observations from a re-analysis of the deposited data

Results flagged for a closer look

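Cox7a2l, Ndufb6 and Uqcrc1 were higher by 1.5-fold in the Igfbpl1 library in 1 class and lower by 1.5-fold in another, and the difference between classes was not tested. The share of all genes that did the same was not counted. Cox7a2l, the supercomplex factor, had a ratio of 0.508 (0.362 to 0.727) in T-gated cells and 1.75 (0.880 to 3.79) in bipolar-gated cells. Ndufb6, a membrane-arm subunit of complex I, had 1.60 (0.698 to 4.505) in T-gated and 0.481 (0.138 to 1.37) in B-gated cells. Uqcrc1, a core protein of complex III, had 0.606 (0.311 to 1.29) in T-gated and 1.78 (0.637 to 6.13) in bipolar-gated cells. The counting intervals of 5 of these 6 ratios include 1.

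The mitochondrially encoded subunits were above the PBS level in microglia-gated cells and below it in the other classes that both libraries hold. Their summed ratios were 1.19 in microglia-gated, 0.690 in T-gated, 0.708 in B-gated and 0.881 in bipolar-gated cells, and the differences between these ratios were not tested.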

How the results depend on the processing

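All 131 class values over microglia-gated cells under the alternatives were above 1. Classes with under 20 cells gave no value, which left 13 class comparisons with a lead of 0.2, 12 among cells of 2000 UMIs or more, and 6 and 2 among cells with Xist or Y-linked genes alone. The summed ratio in microglia-gated cells (1.23) was 1.33 centred on the median gene, 1.28 without ribosomal, mitochondrial and heat shock genes in the total, 1.20 with a lead of 0.2, 1.20 thinned to 1000 UMIs, 1.20 as a mean of per-cell shares, and 1.25 and 1.19 in cells with Xist and Y-linked genes alone. The count of higher members there (5) was 1 with 50 CPM added, 10 centred, 2 with the lead of 0.2, 3 without doublets, and 10 and 1 in cells with Xist and Y-linked genes alone, where 9.38% and 2.91% of all genes were higher. The count of lower members (0) was 1 thinned and 2 in cells with Xist alone, where 18.8% of all genes were lower. For the counts under the other alternatives the share of all genes was not counted. The median log2 ratio (0.24) was 0.19 with 50 CPM added, 0.21 with no minimum level, 0.35 centred, 0.29 with the reduced total and 0.20 thinned. In T-gated cells the summed ratio (1.54) was 1.41 centred and 1.28 with the reduced total. In B-gated cells (1.35) it was 1.51 centred, 1.25 with the lead of 0.2, 1.54 in cells of 2000 UMIs or more, 1.20 thinned and 1.23 as a mean of per-cell shares. In bipolar-gated cells (1.21) it was 1.07 in cells of 2000 UMIs or more. The cause was not tested. Leaving out members that share 3' sequence with other genes, an alternative chosen after seeing the data, gave 1.21, 1.47, 1.30 and 1.22 in microglia, T, B and bipolar-gated cells. No paired analysis was possible because each group is 1 library. Depth limits the classes of 21 to 34 cells, where a member may rest on under 20 UMIs.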

Other observations

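Cox6a2, the heart and muscle form of a complex IV subunit that the choice by symbol left out, had 341 UMIs in 57 of the 84 plasmacytoid dendritic-gated cells of the Igfbpl1 library (1096 CPM, 982 to 1218) and was among the 10 genes with the largest fold in that class. In the same library it was at 2.61 CPM in monocyte-gated, 1.25 CPM in T-gated and 26.1 CPM in microglia-gated cells. Of the 6 plasmacytoid dendritic-gated PBS cells 1 had a UMI. Among the 29 PBS cells left without a class, 2 held 28 UMIs of Cox6a2 (247 CPM over these 29 cells, 164 to 357).

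Ndufb1-ps, left out as a pseudogene symbol, was at 166 CPM (151 to 181) in PBS and 175 CPM (162 to 188) in Igfbpl1 microglia-gated cells. It was at 901 CPM (655 to 1210) in rod-gated PBS cells and at 467 CPM (428 to 508) in monocyte-gated Igfbpl1 cells.

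Among regulators of OXPHOS genes, Nrf1, which binds the NRF1 motif, stood at 74.3 CPM in PBS and 44.9 CPM in Igfbpl1 microglia-gated cells (0.604, 0.494 to 0.739). Yy1, which binds the YY1 motif, stood at 92.1 and 80.1 CPM (0.871, 0.738 to 1.03). Of the 14 regulators listed 3 were measured there, and 1, Nrf1, was lower.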
